A study of Bos taurus with 16 samples.

Results

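Expression of 10 genes for selenoproteins and antioxidant enzymes was examined in CD14+ cells of the pregnant bovine endometrium and of blood. The genes were the glutathione peroxidases GPX1, GPX3 and GPX4, the selenoproteins SEPX1, SEPP1 and SEPW1, the thioredoxin reductase TXNRD1, the superoxide dismutases SOD1 and SOD2, and catalase (CAT). They were found by their symbol in the name or description of the probes, and each had 1 probe, so they were 10 of the 21475 probes on the array. SEPX1, SEPP1 and SEPW1 are now named MSRB1, SELENOP and SELENOW. All 10 were detected above background in every channel, 8 for each tissue, and all 10 were among the 16653 probes tested.

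The cells came from 4 pregnant cows (Bos taurus) collected at an abattoir, and no other treatment was given to either group. Pregnancy was dated to day 164 in animal 1 and to days 239, 242 and 248 in animals 2 to 4. From each cow, CD14+ cells were sorted by flow cytometry from a collagenase digest of interplacentomal endometrium and from mononuclear cells of blood left in the heart. RNA of both tissues of an animal was amplified and hybridized together on an Agilent bovine array with 2 colours, as 2 technical replicates on different slides, with the dyes swapped in 3 of the 4 animals.

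Selenoproteins carry the amino acid selenocysteine, which is inserted at a UGA codon that would otherwise stop translation, and much of the family reduces peroxides, disulfides or oxidized methionine. Superoxide dismutases turn superoxide, the first product of the phagocyte oxidase, into hydrogen peroxide, which catalase, glutathione peroxidases and peroxiredoxins then remove. Monocytes and macrophages both make these oxidants and are exposed to them.

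The array measured each gene through a probe of 60 bases, and these sequences are what the values below refer to. The probes of the 5 genes with the largest differences between tissues are shown, GPX4 in full and the others as 30 bases, in lower case on the strand listed in the deposited files. Capitals mark AATAAA, the sequence that often precedes the site of polyadenylation.
GPX4: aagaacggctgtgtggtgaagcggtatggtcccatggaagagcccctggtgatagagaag
SEPP1, first 30 bases: ttttttatggtcaatactgttaagcagaaa
GPX3, first 30 bases: ctaccggctggcatctcttactgcctccaa
SEPX1, first 30 bases: agagtgaagccccttccaccttgaatcctc
SOD2, last 30 bases: tggacacttcctAATAAAttttacagtccg
Of the 10 probes, only that of SOD2 held AATAAA on this strand, against 11.8% of all probes on the array. The probes of the 10 genes had a GC content of 35% to 55%, with a median of 44.2% against 43.3% over all probes. Each gene was therefore read at a single place of its transcript, and levels of different genes cannot be compared on this scale.

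Levels are given as the authors' normalized log2 intensity, the mean of 2 technical replicates, on a scale where the median of every channel was 8.0. Markers of cell types were examined first, since the preparations did not look alike. CD14 itself had a log2 level of 16.12 in the blood cells of animal 1 but of 5.76, 8.85 and 6.94 in those of animals 2 to 4. In the endometrial cells it was 14.04 in animal 1 and 6.07, 9.5 and 7.38 in animals 2 to 4. The marker of the sort was thus bright only in the preparations of animal 1, and below the median probe in both tissues of animals 2 and 4. The labels give a purity by flow cytometry of 90% to 95% for the endometrial and of 98% to 99% for the blood preparations. Whether the preparations of animals 2 to 4 hold the cells that the labels name cannot be settled from these values, and the name CD14+ cells is used below as the labels give it.

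All 10 monocyte or macrophage markers were tested, and 1, the mannose receptor MRC1, was upregulated in endometrium (mean log2 ratio 4.59, limma adjusted p = 0.0142). Their summed log2 intensity was 19.01 in the blood of animal 1 and 14.38 to 14.75 in the other animals, and it ranged from 15.29 (animal 2) to 18.59 (animal 1) in endometrium. The 12 markers of T or natural killer cells, all tested, were ordered otherwise in blood, with a sum of 13.33 in animal 1 and 16.38 to 17.46 in the other animals, and with 17.01 to 19.15 in endometrium. Of 10 granulocyte markers 9 had a probe, and CATHL1 and CATHL4 were not well above background. Of the 7 tested, 1 was upregulated in blood and none in endometrium. The sum of the 9 was 18.16 in the blood of animal 1 against 12.28 to 12.92 in the other animals and 9.20 to 14.56 in endometrium. Log2 levels of blood cells correlated across probes with r of 0.788 to 0.822 between animal 1 and the others and of 0.923 to 0.951 among the others. For this reason each comparison of the 10 genes is also given without animal 1.

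Trophoblast and epithelial markers summed higher in the endometrial cells of each animal. The 19 trophoblast markers were read by 18 probes, since CSH1 and CSH2 share 1. Of 17 tested 14 were upregulated in endometrium, the sum was 15.74 to 17.41 there and 11.55 to 13.21 in blood, and 7 of the 18 were not well above background in blood. PAG1 alone had a mean in the other direction (log2 ratio −2.10, limma adjusted p = 0.230). Of 14 epithelial markers 7 were upregulated in endometrium, with sums of 15.31, 15.65, 18.57 and 17.53 in animals 1 to 4 and of 11.04 to 13.27 in blood. SERPINA14, a secreted protein of the uterine glands, made up most of the epithelial sum in endometrium of animals 2 to 4. Without it the sums of the other 13 were 14.52, 13.46, 17.53 and 13.47 in animals 1 to 4. Of 12 stromal markers tested 2 were upregulated, with sums of 18.57, 12.74, 14.05 and 14.18 in endometrium and of 13.03 to 16.75 in blood. The 7 B cell markers summed to 13.43 to 15.92 in endometrium and 14.62 to 17.41 in blood, with 1 upregulated in blood. In such bulk preparations, fewer cells of a type and less RNA of a gene per cell cannot be told apart.

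**Figure D1:**
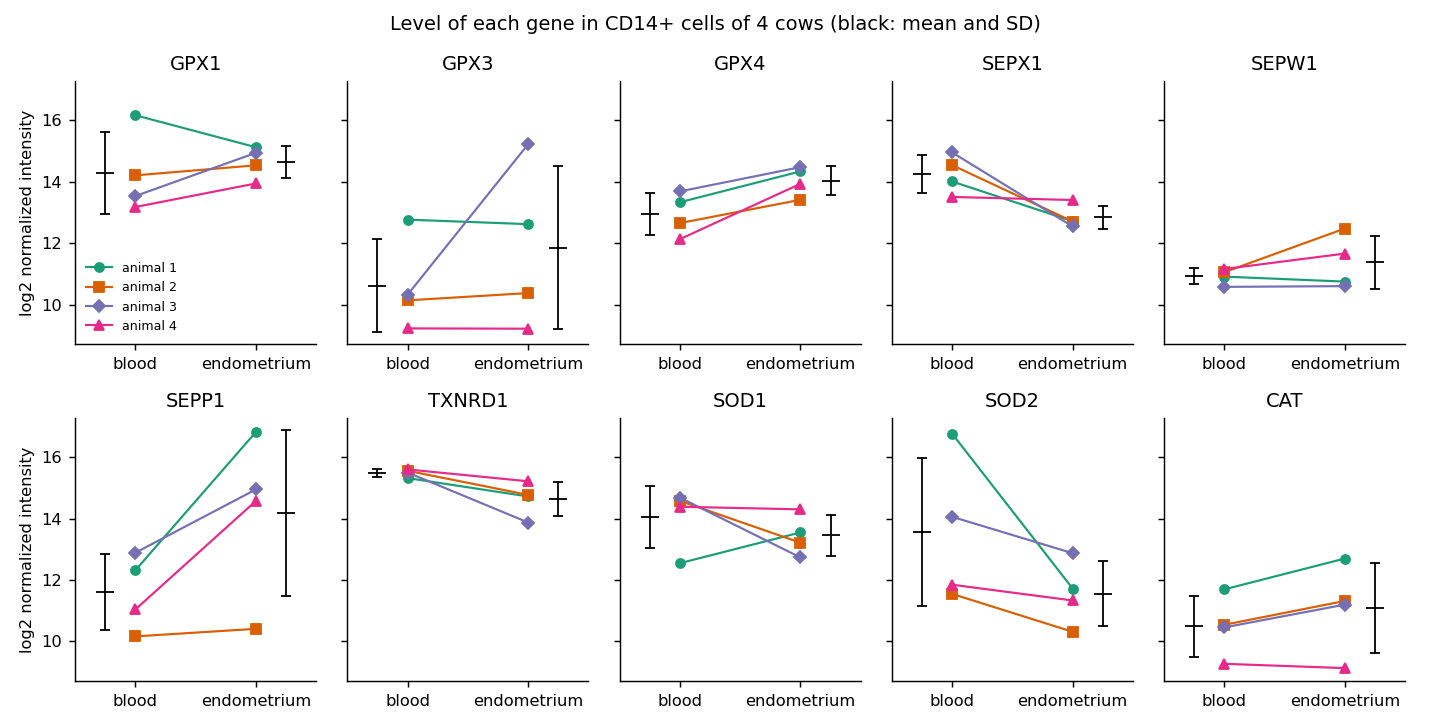
Log2 normalized intensity of each of the 10 genes (vertical axis) in CD14+ cells of blood and endometrium of 4 cows, a line per animal, with the mean and SD of each tissue in black at the side. In these means of technical replicates SEPX1 and TXNRD1 had no overlap between tissues. The highest GPX3 level in endometrium was that of animal 3 (15.23), and the highest SOD2 level in blood was that of animal 1 (16.76). The lowest SOD1 level in blood was that of animal 1 (12.55).

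None of the 10 genes was differentially expressed between endometrial and blood CD14+ cells, when a probe was called for an adjusted p up to 0.05 together with a fold above 2 (limma on the ratios of 4 animals, Benjamini-Hochberg over all probes). This rule called 1.35% of all probes tested, 1.23% higher in endometrium and 0.12% higher in blood. With the scanner intensities renormalized by normexp and loess it called 0.03% of all probes and none of the 10. At an unadjusted p up to 0.05 there were 4 of 10, all with folds over 2. SEPP1 and GPX4 were higher in endometrium, where 7.98% of all probes passed, and SEPX1 and SOD2 were higher in blood, where 8.05% passed. With the renormalized intensities these were GPX4, SEPP1 and CAT in endometrium (7.74% of all probes) and SEPX1 and TXNRD1 in blood (6.22%). By a paired analysis of variance refitted here over the 4 animals, without adjustment, GPX4 alone of the 10 passed in endometrium (3.8% of all probes) and none in blood (3.58%). This refit is not the study's own fit and need not give its p-values. If tissues are exchanged within the 4 animals, the smallest p of an exact permutation test is 0.125. The ratios of 5 genes had the same direction in 4 of 4 animals, namely SEPP1 and GPX4 (higher in endometrium, 9.82% of all probes) and SEPX1, TXNRD1 and SOD2 (higher in blood, 15.2%). For SEPX1 in animal 4, technical replicate 2 alone had the other direction. The median log2 ratio over the 10 genes, endometrium minus blood, was 0.41, beside −0.14 over all probes tested, and renormalization moved the latter to 0.02. Within animals 1 to 4 the median of the 10 genes was −0.15, 0.24, 0.38 and −0.05, with 4, 6, 6 and 4 of the 10 higher in endometrium.

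**Figure D2:**
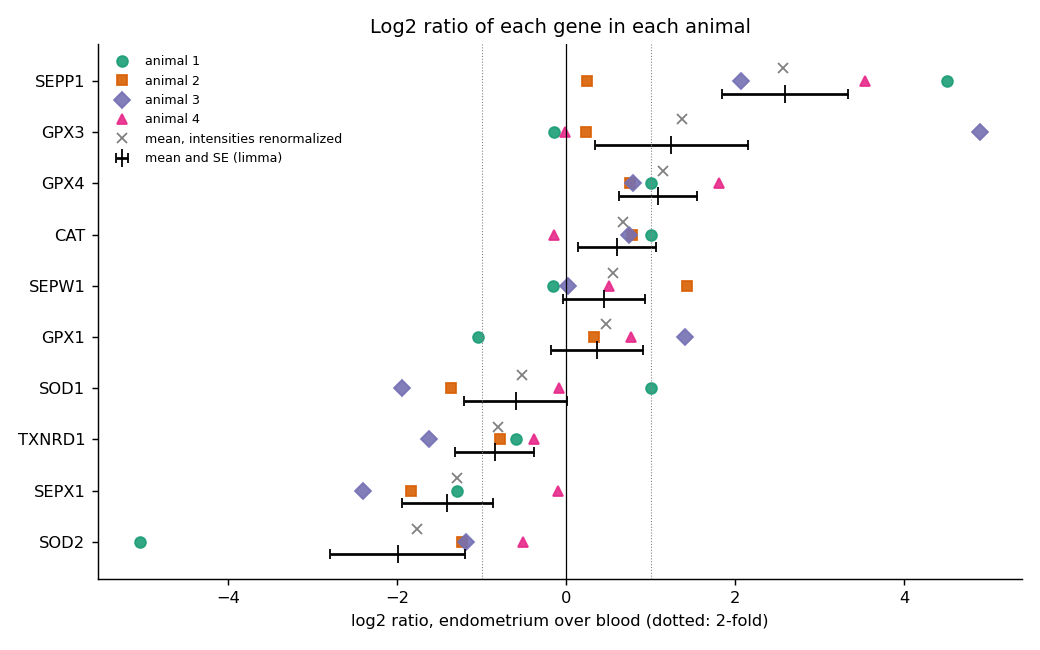
Log2 ratio of endometrium over blood (horizontal axis, dotted lines at a 2-fold difference) for each gene in each of 4 animals, with the limma mean and SE in black and the mean after renormalizing the scanner intensities as a grey cross. SEPP1 had the highest mean (2.59) and SOD2 the lowest (−1.99), and the crosses lay near the black means.

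The glutathione peroxidases use glutathione to reduce peroxides. GPX4, which reduces lipid hydroperoxides within membranes, had log2 levels of 14.34, 13.42, 14.48 and 13.94 in the endometrial cells of animals 1 to 4 and of 13.34, 12.66, 13.69 and 12.13 in their blood cells. Each animal was higher in endometrium, although the 2 sets of levels overlapped between 13.42 and 13.69. The ratios on the log2 scale were 1.00, 0.76, 0.79 and 1.80, and the mean was 1.09 ± 0.46 (SE, n = 4, a fold of 2.13; limma adjusted p = 0.311, 95% interval 0.0023 to 2.18). Their SD over animals was 0.49, and only 10.3% of all probes tested had a smaller SD. GPX4 was the steadiest of the 10 genes in this respect. Without animal 1 its mean log2 ratio was 1.12.

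GPX1, the abundant cytosolic glutathione peroxidase, had log2 levels of 15.13, 14.54, 14.94 and 13.95 in endometrial cells and of 16.17, 14.21, 13.54 and 13.18 in blood cells. Its log2 ratios were −1.04, 0.33, 1.41 and 0.77, so that animal 1 went the other way from animals 2 to 4. The mean was 0.37 ± 0.55 (SE, n = 4; limma adjusted p = 0.791), with a 95% interval of −0.93 to 1.66. Without animal 1, whose blood cells had the highest GPX1 level of all 8 preparations, the mean log2 ratio was 0.83, and without animal 3 it was 0.02. The part of the marker differences between these preparations in this result was not tested.

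GPX3, the secreted peroxidase of plasma and extracellular fluid, had log2 levels of 12.62, 10.38, 15.23 and 9.22 in endometrial cells and of 12.77, 10.14, 10.33 and 9.23 in blood cells. The 2 tissues were nearly level within animals 1, 2 and 4, with log2 ratios of −0.15, 0.24 and −0.01, while animal 3 had a log2 ratio of 4.90. The mean of 1.24 ± 0.91 (SE, n = 4; limma adjusted p = 0.536) therefore came from 1 animal, and it was 0.03 without animal 3 and 1.71 without animal 1. Endometrial cells of animal 3 also had the highest sum of the epithelial markers (18.57, or 17.53 without SERPINA14) and of the trophoblast markers (17.41), whose part in the result was not tested.

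SEPX1, a methionine sulfoxide reductase that restores the R form of oxidized methionine, was lower in the endometrial cells of each animal. Its log2 levels were 12.72, 12.71, 12.55 and 13.41 in endometrial cells and 14.01, 14.54, 14.96 and 13.51 in blood cells. The 2 tissues did not overlap, which held for 3.37% of all probes tested in this direction and for 2.7% in the other. The gap between them was that within animal 4, the highest in endometrium and the lowest in blood. On its 2 arrays the log2 ratios were −0.33 and 0.13, so the tissues overlapped on technical replicate 2. Within animals 1 to 4 the log2 ratios were −1.29, −1.83, −2.41 and −0.10, and the mean was −1.41 ± 0.54 (SE, n = 4, a fold of 2.66; limma adjusted p = 0.276, 95% interval −2.68 to −0.14). Without animal 1 the mean log2 ratio was −1.45, and without animal 4 it was −1.85.

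SEPP1, the plasma protein that carries selenium between tissues and is made by liver and by macrophages among other cells, had the highest mean ratio of the 10 genes. Its log2 levels were 16.82, 10.41, 14.95 and 14.57 in endometrial cells and 12.32, 10.16, 12.89 and 11.04 in blood cells. The endometrial cells of animals 1, 3 and 4 were above all 4 blood preparations, whereas those of animal 2 were below those of blood in 3 animals. The log2 ratios were 4.50, 0.25, 2.06 and 3.53, and the mean was 2.59 ± 0.74 (SE, n = 4, a fold of 6.0; limma adjusted p = 0.196, 95% interval 0.83 to 4.34). This mean exceeded that of 96.4% of all probes tested. It was 1.95 without animal 1 and 3.37 without animal 2. In endometrium the sum of the monocyte or macrophage markers had the same order of animals as SEPP1, from 15.29 in animal 2 through 16.93 in animal 4 and 17.20 in animal 3 to 18.59 in animal 1, and the part of these markers in the result was not tested. The stromal sum in endometrium was likewise lowest in animal 2 (12.74) and highest in animal 1 (18.57). In blood the order was not shared. There the monocyte or macrophage sums were 19.01, 14.75, 14.59 and 14.38 in animals 1 to 4, while SEPP1 was highest in animal 3.

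SEPW1, a small selenoprotein abundant in muscle, had log2 levels of 10.75, 12.48, 10.61 and 11.67 in endometrial cells and of 10.92, 11.06, 10.58 and 11.16 in blood cells. The blood preparations lay within 0.58 on the log2 scale, and the endometrial ones spread over 1.88. The log2 ratios were −0.16, 1.42, 0.02 and 0.50, with a mean of 0.45 ± 0.49 (SE, n = 4; limma adjusted p = 0.698, 95% interval −0.71 to 1.60). Animal 2 was the source of most of it, since the mean log2 ratio was 0.12 without animal 2, and it was 0.65 without animal 1.

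TXNRD1, the cytosolic thioredoxin reductase that keeps thioredoxin reduced at the expense of NADPH, was also lower in the endometrial cells of each animal. Its log2 levels in blood cells, 15.31, 15.55, 15.50 and 15.60, had an SD of 0.12, the smallest of the 10 genes in either tissue. In endometrial cells they were 14.72, 14.77, 13.87 and 15.21, and all were below every blood preparation. The log2 ratios were −0.60, −0.79, −1.63 and −0.39, and the mean was −0.85 ± 0.47 (SE, n = 4, a fold of 1.80; limma adjusted p = 0.412, 95% interval −1.95 to 0.25). Thus a gene without overlap between the tissues stayed under a 2-fold difference. The mean log2 ratio was −0.93 without animal 1 and −0.59 without animal 3.

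**Figure D3:**
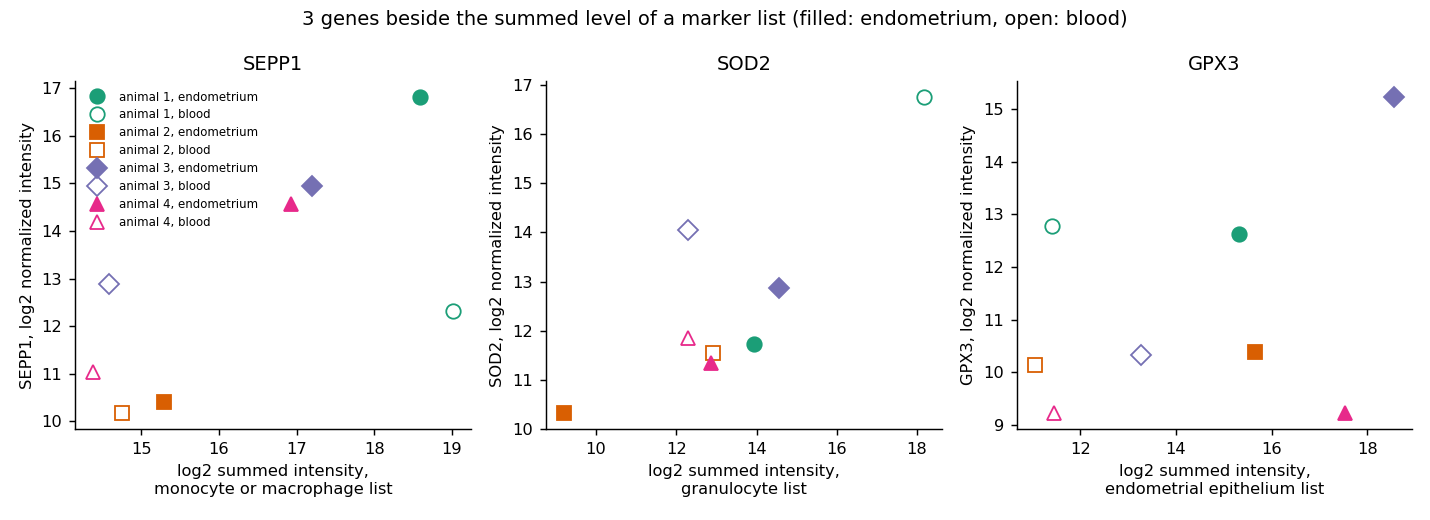
Log2 levels of SEPP1, SOD2 and GPX3 (vertical axes) beside the log2 summed intensity of a list of marker genes (horizontal axes) in the 8 preparations, endometrium filled and blood open. The highest SOD2 level lay in the blood cells of animal 1, which had the highest granulocyte sum (18.16), mostly that of S100A8. The highest GPX3 level lay in the endometrial cells of animal 3, which had the highest epithelial sum (18.57).

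SOD2, the manganese superoxide dismutase of mitochondria, had the lowest mean ratio of the 10 genes. Its log2 levels were 11.72, 10.31, 12.87 and 11.33 in endometrial cells and 16.76, 11.55, 14.06 and 11.85 in blood cells. Blood was higher within each animal, but the tissues overlapped, and the blood cells of animal 1 were far above the rest. The log2 ratios were −5.04, −1.23, −1.18 and −0.51, and the mean was −1.99 ± 0.80 (SE, n = 4, a fold of 3.98; limma adjusted p = 0.296, 95% interval −3.88 to −0.10). The mean ratio was lower for only 3.42% of all probes tested. Without animal 1 it was −0.98, about a 2-fold difference. The blood preparation of animal 1 also held the highest sums of granulocyte (18.16) and of monocyte or macrophage markers (19.01). Most of the granulocyte sum was S100A8, a calcium-binding protein of neutrophils and monocytes, with a log2 level of 17.93 there. In the blood of the other animals S100A8 was at 12.04 to 12.83, and the part of these markers in the result was not tested.

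SOD1, the cytosolic copper and zinc enzyme, differed from SOD2 in the direction of animal 1. Its log2 levels were 13.55, 13.21, 12.73 and 14.30 in endometrial cells and 12.55, 14.57, 14.68 and 14.38 in blood cells. In blood, animal 1 was thus the lowest for SOD1 and the highest for SOD2. The log2 ratios of SOD1 were 1.00, −1.36, −1.95 and −0.08, and the mean was −0.60 ± 0.61 (SE, n = 4; limma adjusted p = 0.672, 95% interval −2.04 to 0.84). Without animal 1 the mean log2 ratio was −1.13, and without animal 3 it was −0.15.

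CAT, the peroxisomal enzyme that breaks down hydrogen peroxide, had log2 levels of 12.70, 11.32, 11.20 and 9.13 in endometrial cells and of 11.70, 10.54, 10.46 and 9.27 in blood cells. The order of the animals was the same in both tissues, animal 1 being the highest and animal 4 the lowest, and the levels differed more between animals than between tissues. The log2 ratios were 1.00, 0.78, 0.74 and −0.14, with an SD of 0.50 and a mean of 0.60 ± 0.46 (SE, n = 4; limma adjusted p = 0.562, 95% interval −0.50 to 1.69). Without animal 1 the mean log2 ratio was 0.46.

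Technical replicates gave nearly the same ratios. Over the 40 pairs of technical replicates (10 genes in 4 animals) the gap in log2 ratio had a median size of 0.12, and in 37 pairs both ratios had the same sign. The widest gaps were those of CAT, with 0.64, 0.57 and 0.74 in animals 1, 2 and 4, whose dyes were swapped, and 0.04 in animal 3, whose dyes were not. SEPX1 had gaps of −0.42, −0.45 and −0.45 in the animals with swapped dyes and of −0.19 in animal 3. In animal 4 the 2 arrays consequently gave SEPX1 log2 ratios of −0.33 and 0.13 and CAT log2 ratios of 0.23 and −0.51, that is, of opposite sign. With a dye term in the fit, the mean log2 ratio was −1.46 for SEPX1 and 0.68 for CAT.

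**Figure D4:**
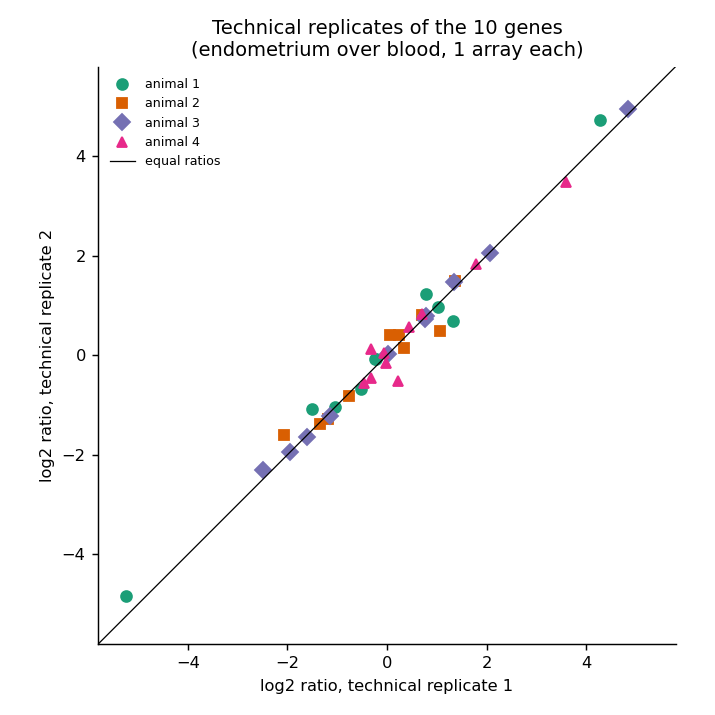
Log2 ratio of endometrium over blood of the 10 genes on technical replicate 1 (horizontal axis) and technical replicate 2 (vertical axis), a point per gene and animal, with a line of equal ratios. The points followed the line, and in 37 of 40 both ratios had the same sign.

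For SEPP1 and SOD2, the genes with the highest and lowest mean ratio, the probes with the most similar levels over the 8 preparations were sought. These preparations are pairs from 4 animals, so the values of r are a description. For SEPP1 the highest was GPNMB, a transmembrane glycoprotein of macrophages and other cells, with r = 0.985 and log2 ratios of 5.74, −0.12, 4.76 and 5.20. It was followed by a probe described as similar to RGL1 (r = 0.971), by SPP1, the secreted phosphoprotein osteopontin (r = 0.968), by FBLN5, an elastic fibre protein (r = 0.966), and by CCDC3 (r = 0.959). GPNMB, FBLN5 and CCDC3 shared with SEPP1 the small ratio in animal 2, where FBLN5 had −0.33 and CCDC3 0.07, but SPP1 had 3.55 there. For SOD2 the highest was a probe without a gene name (r = 0.973), followed by SYPL1 (r = 0.955), CD164 (r = 0.946), MTHFS (r = 0.944) and TBC1D8 (r = 0.943). All of these had their lowest log2 ratio in animal 1, from −3.07 for TBC1D8 to −1.82 for SYPL1 and MTHFS. Since these probes were chosen for levels like those of SEPP1 or SOD2 in the same preparations, ratios shared with them are no separate result.

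Further genes of selenium and redox metabolism were taken from 7 lists, with 104 genes, of which 94 had a probe and 89 were tested. Of these, 2 were differentially expressed, both upregulated in endometrium, against 1.23% of all probes, and the median log2 ratio was 0.04. GSTM3, a glutathione S-transferase, had log2 levels of 15.73, 11.40, 14.26 and 10.22 in endometrial cells and of 9.87, 7.95, 9.18 and 8.17 in blood cells, without overlap. Its mean log2 ratio was 4.11 ± 0.70 (SE, n = 4; limma adjusted p = 0.0483), though the probe may also detect near-identical members of its family. AKR1B1, an aldose reductase that in bovine endometrium also makes prostaglandin F, had levels of 12.41, 10.68, 13.69 and 11.48 in endometrial cells and of 9.34, 7.69, 10.02 and 9.48 in blood cells, again without overlap, and a mean log2 ratio of 2.93 ± 0.49 (SE, n = 4; limma adjusted p = 0.0439). Of 14 alternatives with an adjusted p, 4 called GSTM3 (adjusted p from 0.0203 to 0.480) and 4 called AKR1B1 (0.0112 to 0.350). Without animal 1 their mean log2 ratios were 3.53 and 2.88 and neither was called. At an unadjusted p of at most 0.05 there were 14 of the 89, 10 higher in endometrium and 4 higher in blood, beside 7.98% and 8.05% of all probes.

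Among the other selenoproteins (14 tested, median log2 ratio 0.01, or 0.15 without animal 1), none was differentially expressed and 2, SELK and DIO2, had an unadjusted p up to 0.05. GPX2, an epithelial glutathione peroxidase, had log2 ratios of 0.84, 0.93, 4.38 and 0.64 (limma adjusted p = 0.317), the highest in animal 3, which also had the high GPX3, and only 5 of 8 channels of blood detected it above background. DIO2, which activates thyroid hormone, had the highest mean of the list, with log2 ratios of 6.29, 0.55, 5.19 and 1.25 (adjusted p = 0.215). SELK, a selenoprotein of the endoplasmic reticulum, had log2 ratios of −1.45, −1.89, −1.80 and −0.10 (limma adjusted p = 0.283). The 10 genes for selenocysteine synthesis and selenium supply had a median of −0.28 (0.06 without animal 1) and lay between −0.81 and 0.52, with none at an unadjusted p of at most 0.05. The same count of 0 held for the 12 peroxiredoxins, thioredoxins and methionine sulfoxide reductases (median 0.28, or 0.38 without animal 1), in which PRDX2, a cytosolic peroxiredoxin, had a mean log2 ratio of 0.44 and of 0.07 without animal 1.

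In the list for glutathione synthesis and use (22 genes tested, median log2 ratio 0.24, or 0.15 without animal 1), GSTA1 had a mean of 3.83 in the direction of endometrium (limma adjusted p = 0.0866). This list and its medians also include GCHFR, which is not a gene of glutathione metabolism. GCLC, the catalytic subunit of the enzyme that limits glutathione synthesis, had log2 ratios of −0.73, −3.26, −3.66 and −0.41 (adjusted p = 0.246), and GLRX2, a mitochondrial glutaredoxin, had a mean of −1.54 (adjusted p = 0.349). Of 9 partners of the superoxide dismutases and suppliers of NADPH (median 0.08, or 0.38 without animal 1), SOD3, the extracellular superoxide dismutase, had log2 ratios of 0.94, 0.94, 4.84 and 4.01 (adjusted p = 0.205). IDH1, a cytosolic source of NADPH, had 0.47, 3.76, 5.01 and 3.83 (adjusted p = 0.139), with means without animal 1 of 4.20 for IDH1 and 3.27 for SOD3, and its mitochondrial relative IDH2 had a mean of −0.59 (adjusted p = 0.566). The cytosolic, mitochondrial and extracellular superoxide dismutases therefore had means of −0.60, −1.99 and 2.68, none of which passed the test.

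Among 15 regulators and targets of NRF2, the transcription factor of the antioxidant response (median log2 ratio −0.20, or 0.22 without animal 1), HMOX1, heme oxygenase, had log2 ratios of 0.98, 2.72, 4.82 and 3.36 (limma adjusted p = 0.127). MAFK, a small MAF protein that pairs with NRF2, had a mean of −1.99 (adjusted p = 0.207), and its relative MAFG had a mean of −1.28 (adjusted p = 0.281). The 7 genes of the phagocyte NADPH oxidase had the lowest median of the 7 lists, −0.76 (−0.61 without animal 1). That median was −1.22, 0.03, −1.18 and 0.11 in animals 1 to 4, so it was below 0 in 2 of the 4. NCF4, a cytosolic subunit, had log2 ratios of −2.32, −0.34, −3.83 and −0.21 (adjusted p = 0.314). The epithelial and trophoblast sums were higher in endometrium in each animal, and their part in the values of these lists was not tested.

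**Figure D5:**
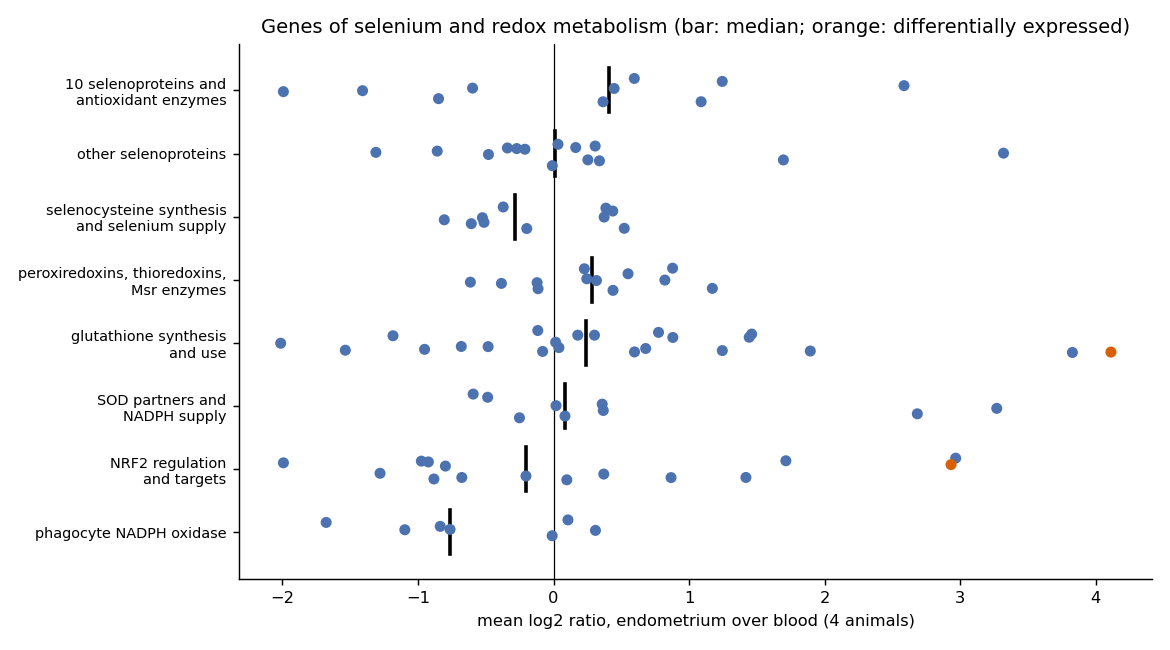
Mean log2 ratio of endometrium over blood in 4 animals (horizontal axis) for the 10 genes and for 89 further genes in 7 lists, a point per gene with random vertical spread, a bar at the median and genes that were differentially expressed in orange. GSTM3 (4.11) and AKR1B1 (2.93) are the orange points, and the 10 genes lie between −1.99 and 2.59.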

How the data were processed

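RNA of endometrial and blood CD14+ cells of 4 cows was measured on 8 two-colour arrays, 16 channels. The authors deposited scanner intensity files (Agilent Feature Extraction; version 9.5 in the submitters' notes, 10.5.1.1 in the file headers) and a table of log2 values, normalized by lowess and by quantiles over channels. The table was the main source, because the members were to be read from it.

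Its 16 columns were compared with the scanner files. Each column was laid in the rank order of a file's processed signals, averaged by probe and compared with itself. With its labeled dye in the file deposited for the animal's other technical replicate, it matched at 100% of probes, to within 0.001 in log2. This compares ranks and not intensities. Single spots matched at 40.9% to 41.0% there, and at no more than 0.48% with any other file or dye. Taken as deposited, the files would turn the ratio in the animals with swapped dyes. In the table, trophoblast markers had median log2 ratios of 4.70, 5.21, 5.70 and 5.24 in animals 1 to 4. Scanner alternatives followed the match.

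Spots of a probe, technical replicates and channels were averaged to a log2 ratio of endometrium over blood per animal, tested against 0 with limma 3.58.1 (lmFit and eBayes, R 4.3.3, statmod 1.5.0) and adjusted by Benjamini-Hochberg. Probes well above background in at least 4 of 8 channels of a tissue were tested. The pairing comes from the animal numbers in the labels and the study's methods. Endometrial and blood deviations from the tissue means correlated within animals, with r of 0.628, 0.372, 0.239 and 0.452. These values cannot check the pairing, since both tissues of an animal shared its arrays and mismatched animals were not compared. The fit was tested on simulated data. Per channel, 65.2% to 82.9% of spots were detected well above background and none was saturated. Only 4 animals were measured, which limits precision. Technical replicates of the 10 genes differed less than animals did, though for CAT their SD was 0.40 against 0.50 over animals. The ratios are not shifted by the median of all probes.

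Members and lists were chosen with earlier results of these data known. Other genes named are those called, those with the largest ratios of 1 direction in 4 of 4 animals (up to 2 a list and direction), and the 5 nearest in level to 2 members. Symbols were updated from a RefSeq gene table (ARS-UCD2.0), and coordinates are not used here. List genes were also sought in the descriptions of probes named after ESTs, which stand in another column, and no further probe of the 10 genes was found there. Alternatives changed the values, filter, pairing, slide, dye, test and animals.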

Additional observations from a re-analysis of the deposited data

Results flagged for a closer look

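In 3 of 30 groups of 4 animals (the levels in each tissue and the log2 ratios of the 10 genes) 1 animal lay farther from the others than Dixon's 95% critical value allows, where chance gives about 5% of groups. The log2 ratio of GPX3 was 4.90 in animal 3, and its nearest neighbour was 0.24. The log2 level of SOD1 in blood was 12.55 in animal 1, below a range of 14.38 to 14.68 in the others. The log2 ratio of SOD2 was −5.04 in animal 1, and its nearest neighbour was −1.23. The SOD1 level is that of the blood preparation of animal 1, and the SOD2 ratio sets its endometrial preparation against the same blood preparation. The SOD2 level in blood was not flagged by itself. This blood preparation stood apart in its monocyte, granulocyte and T cell markers, whose part in the 2 values was not tested. Its granulocyte sum was mostly that of S100A8.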

How the results depend on the processing

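Of 15 alternatives, 6 change only the test, its terms or the filter and leave the log2 ratios of the 10 genes as they are. In the other 9 each ratio had the sign of the reported one (90 of 90 values), although GPX3 went down to 0.03 and GPX1 to 0.02 without animal 3. No gene of the 10 passed an adjusted p of at most 0.05 in any alternative. Without adjustment, the paired analysis of variance refitted here passed 1 of the 10, GPX4. The median log2 ratio of the 10 genes was 0.022 without animal 3, 0.55 without animal 1, and within this range without the others.

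The number of all probes called, 224, depended more on the processing. It was 5 with the renormalized scanner intensities, 123 with no filter, 38 with no replicate block (without pairing by animal), 0 by that analysis of variance after adjustment and 1229 by it at an unadjusted p. Without 1 animal it ranged from 0 (without animal 4) to 180 (without animal 2), and it was 64 without animal 1 and 95 without animal 3. None of the 10 genes was called with or without the pairing, so there was no call to lose. The lowest limma adjusted p among them was 0.196 with the pairing and 0.408 without it. The cause of these differences was not tested. The probes of the 10 genes were well above background in every channel.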
